A study of Homo sapiens with 4 samples.

Results

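Imprinted genes, those known to be transcribed mainly from the allele of 1 parent, were followed at their promoters in an ATAC-seq promoter count table. ATAC-seq uses the Tn5 transposase to cut and tag exposed DNA, so that the number of sequenced fragments at a promoter is a measure of how accessible it was. The members were chosen by name, from 48 genes known to be imprinted in human, and 47 of them had a row among the 28775 promoters of the table. SLC22A18 was found under its current symbol SLC67A1, and KCNQ1OT1 was not analysed here. The 48 genes were grouped into 20 imprinted domains, of which 12 held several members. Where values of 2 libraries of a group follow each other, replicate 1 comes first, and ± is the SD over the 2 libraries of a group. The cells were HEK293T, an aneuploid human embryonic kidney line, with 2 wild-type (WT) libraries and 2 MORC2 knock-out (MORC2 KO) libraries and no further treatment. The KO cells were bulk pools made by Cas9 electroporation, 1 guide RNA per pool, so that guide and KO replicate cannot be told apart. MORC2 is an ATPase of the GHKL type, and the comparison asks whether its loss altered chromatin accessibility. Because WT and KO each had 2 libraries, p-values measure only the spread between these samples. The paper calls the WT replicates and the KO lines independent, without saying how the WT replicates were grown.

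Imprinted genes lie in clusters, each governed by an imprinting control region whose DNA is methylated on 1 parental allele from the germ line onwards. The mark is kept through early development by the zinc finger proteins ZFP57 and ZNF445 with their partner TRIM28, the histone methyltransferase SETDB1 and the DNA methyltransferase DNMT1. Typical products are growth regulators, such as IGF2, and long noncoding RNAs, such as H19 and MEG3, which are expressed from the opposite parental allele to their protein-coding neighbours. The counts used here pool both alleles. A promoter open on 1 allele and closed on the other therefore cannot be separated from a promoter that is partly open on both, and parental origin is given only as background.

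The promoter sequences of 5 members are shown because they span the range of accessibility and carry the results below. HYMAI had the most accessible member promoter and SNURF the least accessible one tested. NDN was nearly as closed as SNURF, H19 is the classical maternal noncoding RNA, and PPP1R9A had the smallest p-value in the comparison of KO and WT. The sequences are from RefSeq on GRCh38.p14, cover 250 bases before to 50 bases after the gene start, and are written 5′ to 3′ with each CG dinucleotide, the site of DNA methylation, in capitals. The counts came from an alignment to CHM13, a different assembly, and from a wider window.
HYMAI (chr6:144008210-144008509, minus strand): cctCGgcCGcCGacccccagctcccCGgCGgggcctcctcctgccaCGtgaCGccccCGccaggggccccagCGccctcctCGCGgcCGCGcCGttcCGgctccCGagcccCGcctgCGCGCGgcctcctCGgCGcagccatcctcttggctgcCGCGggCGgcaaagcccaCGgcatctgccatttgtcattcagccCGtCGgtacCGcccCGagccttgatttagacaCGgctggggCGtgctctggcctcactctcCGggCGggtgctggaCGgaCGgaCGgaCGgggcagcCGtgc
NDN (chr15:23687256-23687555, minus strand): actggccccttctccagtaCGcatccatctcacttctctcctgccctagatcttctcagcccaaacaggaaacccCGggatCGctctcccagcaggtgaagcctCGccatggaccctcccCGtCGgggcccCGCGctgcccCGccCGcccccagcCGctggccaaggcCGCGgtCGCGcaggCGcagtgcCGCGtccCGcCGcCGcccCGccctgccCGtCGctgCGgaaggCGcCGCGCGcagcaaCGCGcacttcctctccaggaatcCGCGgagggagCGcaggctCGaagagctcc
SNURF (chr15:24954737-24955036, plus strand): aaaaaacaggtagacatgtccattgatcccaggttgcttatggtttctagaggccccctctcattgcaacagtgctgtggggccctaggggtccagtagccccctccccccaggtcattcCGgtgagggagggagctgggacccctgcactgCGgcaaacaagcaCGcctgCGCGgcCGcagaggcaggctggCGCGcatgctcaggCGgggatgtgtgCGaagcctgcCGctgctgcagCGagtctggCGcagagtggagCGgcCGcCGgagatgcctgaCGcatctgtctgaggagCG
PPP1R9A (chr7:94907344-94907643, plus strand): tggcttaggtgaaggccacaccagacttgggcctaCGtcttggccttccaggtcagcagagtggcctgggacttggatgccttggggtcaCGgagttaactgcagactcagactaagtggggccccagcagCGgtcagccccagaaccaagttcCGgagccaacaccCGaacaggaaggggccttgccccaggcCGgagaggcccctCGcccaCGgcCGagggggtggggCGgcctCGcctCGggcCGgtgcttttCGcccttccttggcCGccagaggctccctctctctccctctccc
H19 (chr11:2001217-2001516, minus strand): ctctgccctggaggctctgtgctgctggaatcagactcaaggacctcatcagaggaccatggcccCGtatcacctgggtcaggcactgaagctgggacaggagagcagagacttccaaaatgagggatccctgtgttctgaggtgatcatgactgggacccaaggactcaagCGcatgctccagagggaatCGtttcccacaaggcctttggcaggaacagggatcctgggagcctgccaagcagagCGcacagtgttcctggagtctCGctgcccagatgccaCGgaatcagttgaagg
CG numbered 39 in HYMAI, 35 in NDN, 18 in SNURF, 15 in PPP1R9A and 6 in H19, against a median of 14 over all 35116 promoter sequences of this length (quartiles 4 and 28). CG reads the same on both strands and occurred in 96.0% of all promoter sequences. NDN, with 35 CG, and HYMAI, with 39, thus stood close in CG number and far apart in accessibility. The hexamer TGCCGC, which ZFP57 binds when its CG is methylated, was searched on both strands. It occurred 2 times in HYMAI, 2 times in SNURF and 1 time in NDN, and at least once in 16.7% of all promoter sequences. Only 29 of the 47 members (61.7%) had a sequence, so that no summary of sequence content over the members was made.

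Many imprinted genes have several starts, and 1 row of the table holds 1 window per gene, so a low row does not describe every promoter of that gene. The HYMAI sequence was identical to 1 of the 5 listed starts of PLAGL1, and the SNURF sequence to 1 of the 4 listed starts of SNRPN. GNAS had 6 listed starts, and GRB10 and MEST had 5 each. Several rows also held nearly the same counts. PEG3 and ZIM2 were identical in every library, MIMT1 differed from them by at most 4.35%, PEG10 differed from SGCE by at most 5.42%, and SNRPN was identical to its neighbour SNHG14. Such rows are 1 observation and not several. In the counts, medians and correlations over members below they still entered as separate rows. Only the count of calls was redone with similar rows counted once. Other rows were close in count to that of a neighbour, and whether their windows overlap was not tested. Those of CDKN1C and KCNQ1 lay within 8.73% and 7.94% of SLC22A18AS and TRPM5. Those of RB1 and DIO3 lay within 0.86% and 5.79% of RB1-DT and DIO3OS, and that of ERLIN2 within 2.44% of LOC102723701.

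Total counts per library ranged from 9435801 to 15152636, and nuclear counts from 6119609 to 12036024, with KO replicate 2 the deepest. Mitochondrial rows took 20.6% of the count in KO replicate 2 and 31.8 to 35.1% in the others. The MORC2 promoter itself held 403 and 639 counts in KO and 247 and 267 in WT. Scaled for depth it was higher in both KO libraries, at 37.0 and 37.5 CPM, than in WT, at 25.7 and 29.6 CPM. Promoter counts do not read the edit and so do not check the KO label. The imprinted rows together held 9071 and 14384 counts in KO, and 7926 and 7220 in WT. As a share of nuclear counts this was 0.118% (95% Wilson interval 0.116 to 0.121) and 0.120% (0.118 to 0.121) in KO, and 0.120% (0.117 to 0.123) and 0.118% (0.115 to 0.121) in WT. The 4 intervals, which cover counting error only, overlapped, and a difference in this share was not tested. The sum counts shared fragments more than once, and opposite changes at single promoters would cancel in it.

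WT accessibility of imprinted promoters spanned a 30.1-fold range. Levels are given as normalised counts in CPM, scaled to library size. They were compared between promoters because the study describes every promoter as a window of 2 kb. Copy number, which can differ between loci in an aneuploid line, was not corrected for. The order of levels is therefore that of counts, and not of accessibility per copy. Of the 46 members with enough counts to be tested, 18 lay above 20 CPM in WT, 19 between 5 and 20 CPM, and 9 below 5 CPM. The median member stood at 12.9 CPM and the median of all 27647 tested promoters at 16.7 CPM. At the top was HYMAI, a noncoding RNA of the PLAGL1 domain, with 55.4 ± 2.18 CPM in WT (SD, n = 2), at the 88.1 percentile of all promoters. IGF2R followed with 41.4 ± 2.80 CPM, COPG2 with 40.0 ± 1.97 CPM and FAM50B with 38.7 ± 0.665 CPM. At the bottom were 3 genes of the Prader-Willi region on chromosome 15, NDN with 1.94 ± 0.391 CPM, MKRN3 with 1.92 ± 0.367 CPM and SNURF with 1.84 ± 0.690 CPM, the highest of them at the 6.29 percentile. In the order of WT levels, the 4 libraries of a promoter overlapped those of the next promoter at all but 4 of 45 steps. The breaks lay below HYMAI, below CDKN1C, below KCNK9 and below NNAT.

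**Figure D1:**
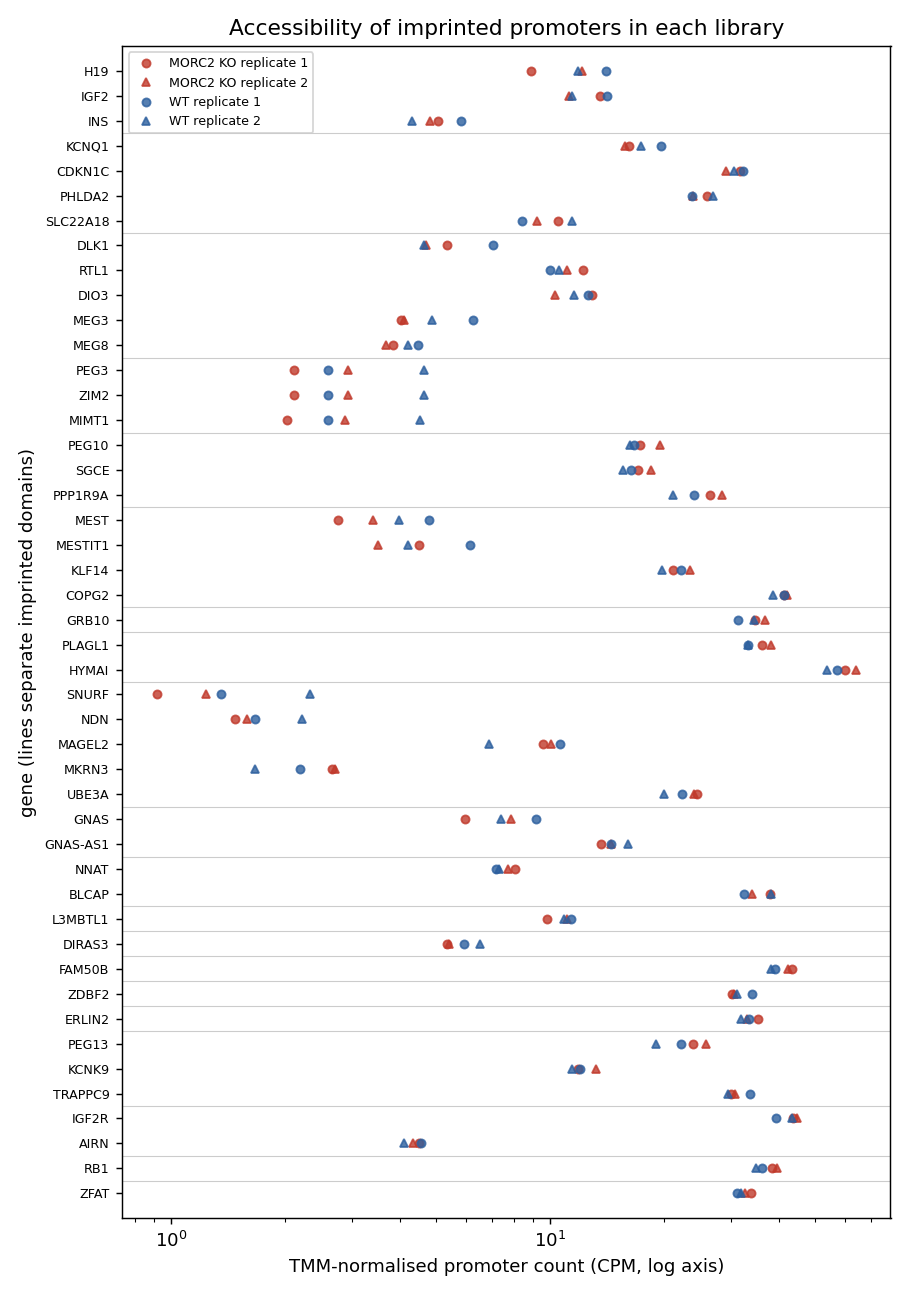
Normalised promoter count (CPM, log axis) of the 46 tested imprinted promoters, 1 line per gene, in MORC2 KO (red) and WT (blue) libraries, with circles for replicate 1 and triangles for replicate 2 and grey lines between domains. HYMAI lies highest at 53.8 to 63.9 CPM in the 4 libraries and SNURF lowest at 0.917 to 2.33 CPM.

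No imprinted promoter differed between MORC2 KO and WT past the threshold. In edgeR's quasi-likelihood test with Benjamini-Hochberg adjustment over all promoters, 0 of 46 members had an adjusted p under 0.05, where 4.45% of all tested promoters did (3.45% higher and 0.995% lower in KO). The paper, which counted small windows and then summarised them per promoter, reported far fewer differentially accessible genes for this comparison. The shares over all promoters given here are thus those of the present fits. The smallest adjusted p among members was 0.0533, that of PPP1R9A. At an unadjusted p under 0.05 there were 6 members, 4 higher and 2 lower, where 20.3% of all promoters passed. DESeq2 without its independent filter called 0 members, where it called 0.0253% of all promoters, and had 0 at an unadjusted p under 0.05, where 5.16% of all promoters passed. Limma-trend called 0 members (2.59% of all promoters) and had 7 at an unadjusted p under 0.05 (5266 of all 27647 promoters). The median log2 fold change of KO over WT (log2FC) of the members was −0.026, and 22 were positive and 24 negative. Over all promoters the median was −0.017. The 2 KO values exceeded the 2 WT values at 15 members (25.2% of all promoters did so) and lay under them at 9 (25.4%), together 52.2% of members against 50.6% of all promoters.

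The precision of these comparisons depended on the level of the promoter. The 95% interval of the log2FC reached 0.14 to either side of the estimate at the most deeply counted member and 0.72 at the least, with a median of 0.27. It lay within 0.25 of no change at 8 members, within 0.5 at 32 and within 1 at 44 of 46. The exceptions to the limit of 1 were SNURF, whose interval ran from −1.44 to 0.0072, and MKRN3, with −0.12 to 1.06. Between replicates the members differed by a median of 0.11 (KO) and 0.16 (WT) on the log2 scale, and between groups by a median absolute log2FC of 0.16.

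**Figure D2:**
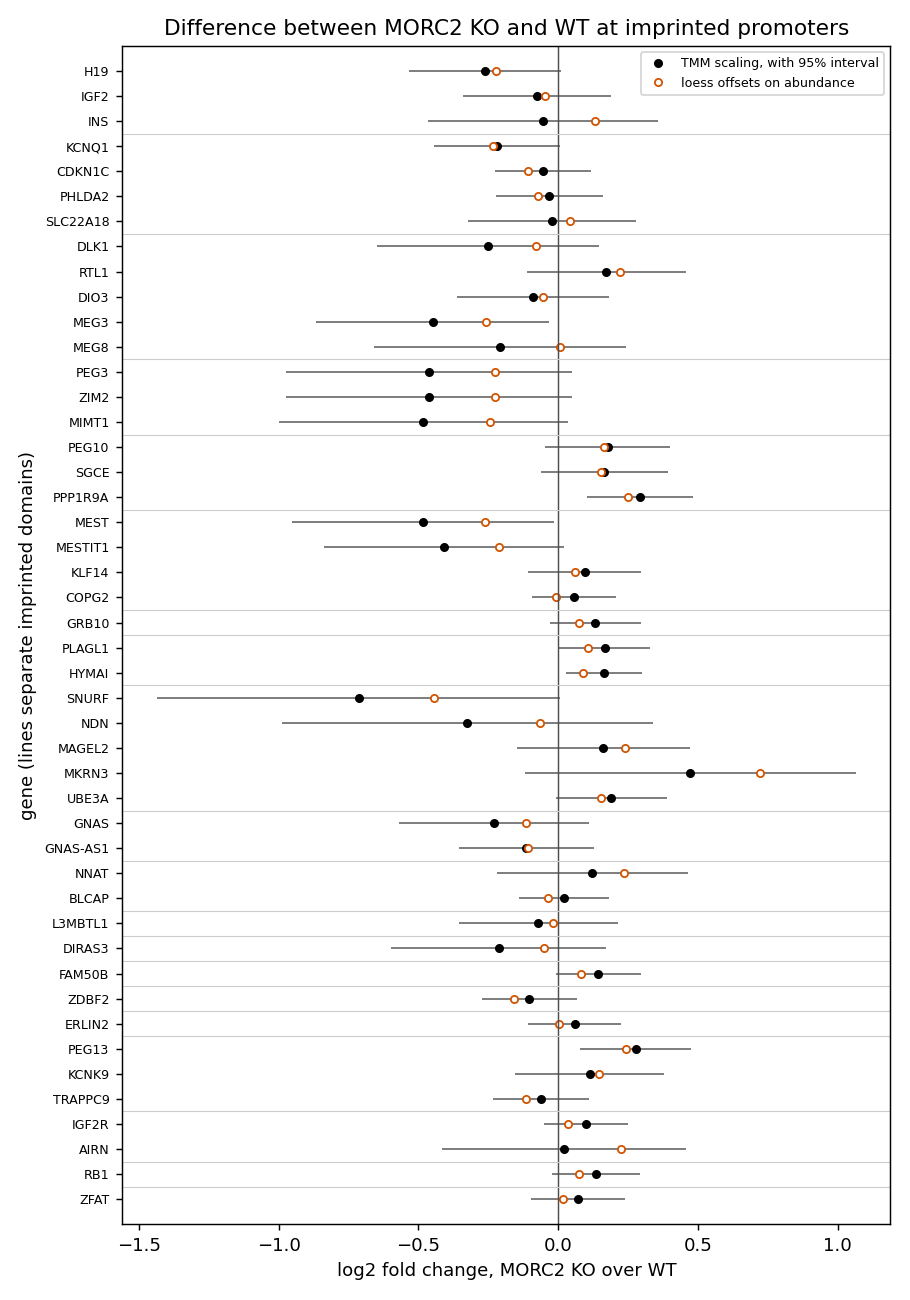
Log2FC of MORC2 KO over WT at the 46 tested imprinted promoters, with filled points and 95% intervals for TMM scaling and open points for loess offsets on abundance, which remove the trend of fold change with level. The intervals of 40 promoters include 0, and those of PPP1R9A, PEG13, PLAGL1, HYMAI, MEG3 and MEST do not, although none of these has an adjusted p under 0.05.

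In the H19 and IGF2 domain on chromosome 11, both leading promoters were of middle accessibility. H19, a maternally expressed noncoding RNA, had 97 and 207 counts in KO and 135 and 107 in WT, or 8.90 and 12.1 CPM against 14.0 and 11.9 CPM. The KO libraries lay further apart than the groups did, and the log2FC of −0.26 (SE 0.14) had an edgeR adjusted p of 0.263. It was −0.076 without KO replicate 1 and −0.54 without KO replicate 2. IGF2, the paternally expressed growth factor, had 147 and 191 counts in KO and 136 and 103 in WT, with a log2FC of −0.077 (SE 0.14, adjusted p 0.784), or 0.068 with total count scaling. The ratio of H19 to IGF2 counts within a library needs no scaling. It was 0.660 (95% interval from counting error 0.511 to 0.852) and 1.08 (0.891 to 1.32) in KO, and 0.993 (0.783 to 1.26) and 1.04 (0.793 to 1.36) in WT. KO replicate 1 alone had fewer counts at H19 than at IGF2 beyond counting error. INS, the insulin gene, stood at 5.07 ± 1.06 CPM in WT (SD, n = 2) and 4.93 ± 0.167 CPM in KO.

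All 4 members of the neighbouring KCNQ1 domain had a log2FC below 0, from −0.22 to −0.022, and none passed the test. With total count scaling, which moved the median of all promoters to 0.12, CDKN1C had 0.085 instead. CDKN1C, a maternally expressed inhibitor of cyclin-dependent kinases, had 345 and 497 counts in KO and 310 and 275 in WT. This was 30.4 ± 1.77 CPM in KO and 31.3 ± 1.23 CPM in WT, with overlapping groups and a log2FC of −0.054 (SE 0.088, edgeR adjusted p 0.763). KCNQ1, a potassium channel, was the member of this domain whose groups did not overlap, with 16.1 and 15.8 CPM in KO and 19.6 and 17.4 CPM in WT. Its log2FC was −0.22 (SE 0.11), with an adjusted p of 0.259. PHLDA2, a maternally expressed gene that restrains placental growth, had −0.031, and SLC22A18, a transporter-like gene, had −0.022. The ratio of CDKN1C to KCNQ1 counts was 1.96 and 1.85 in KO and 1.64 and 1.75 in WT, and the 95% intervals of all 4 libraries overlapped.

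Promoters of the DLK1 and MEG3 domain on chromosome 14 were of low accessibility, with a median of 5.86 CPM in WT. MEG3, the maternally expressed noncoding RNA, had 44 and 70 counts in KO and 60 and 44 in WT. After scaling for depth both KO libraries, at 4.04 and 4.10 CPM, lay below both WT libraries, at 6.23 and 4.87 CPM. The log2FC was −0.45 (SE 0.21, unadjusted p 0.0353 and adjusted p 0.207 in edgeR), and −0.26 without WT replicate 1. DLK1, a paternally expressed inhibitor of differentiation, had 58 and 80 counts in KO and 68 and 42 in WT. Its WT libraries, at 7.06 and 4.65 CPM, enclosed both KO libraries, and the log2FC was −0.25 (adjusted p 0.497). MEG8, another maternally expressed noncoding RNA, had a log2FC of −0.21, whereas RTL1, a retrotransposon-derived gene, had 0.17. DIO3, which inactivates thyroid hormone, had −0.090.

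The PEG3 domain on chromosome 19 was among the least accessible. PEG3, a paternally expressed zinc finger gene, shares its counts with ZIM2 and nearly so with MIMT1, and held 23 and 50 counts in KO and 25 and 42 in WT. The levels were 2.11 and 2.93 CPM in KO and 2.60 and 4.65 CPM in WT, so that the groups overlapped. The log2FC of −0.46 (SE 0.26, edgeR adjusted p 0.298) rested on WT replicate 2, without which it was 0.0058.

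On chromosome 7, the 3 members of the PEG10 and SGCE domain had higher levels in each KO library than in any WT library, as 25.2% of all promoters did, and PEG10 and SGCE count as 1 observation here. PPP1R9A, a neuronal actin-binding protein, had 288 and 485 counts in KO and 230 and 190 in WT. The levels were 27.4 ± 1.43 CPM in KO and 22.5 ± 2.01 CPM in WT. The log2FC was 0.29 (SE 0.097, interval 0.10 to 0.48), with an edgeR adjusted p of 0.0533. It passed the threshold with size factors of DESeq2 (adjusted p 0.0491) and without WT replicate 1 (0.39, adjusted p 0.0279), and its adjusted p was 0.397 without WT replicate 2, 0.506 without KO replicate 2 and 0.970 in DESeq2. PEG10, a retrotransposon-derived gene, and SGCE, which codes for epsilon-sarcoglycan, are transcribed from 1 shared promoter region. PEG10 held 188 and 332 counts in KO and 160 and 146 in WT, with a log2FC of 0.18 (SE 0.11, adjusted p 0.373), and SGCE had 186 and 314 against 157 and 140, with 0.17 (adjusted p 0.420). The ratio of PPP1R9A to SGCE counts was 1.55 and 1.54 in KO and 1.46 and 1.36 in WT, with overlapping intervals.

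The MEST domain, also on chromosome 7, mixed open and closed promoters. MEST, a paternally expressed hydrolase of mesoderm, had 30 and 58 counts in KO and 46 and 36 in WT. Both KO libraries, at 2.75 and 3.40 CPM, lay below both WT libraries, at 4.78 and 3.99 CPM, with a log2FC of −0.48 (SE 0.24, unadjusted p 0.0430 and adjusted p 0.227 in edgeR). MESTIT1, its antisense transcript, had −0.41 with overlapping groups. COPG2, a coat protein gene that overlaps MEST, had a log2FC of 0.057 (edgeR adjusted p 0.714). The ratio of COPG2 to MEST counts was 15.0 and 12.3 in KO and 8.67 and 9.69 in WT, higher in both KO libraries. The counting intervals of all libraries overlapped, and the difference in this ratio was not tested. KLF14, a maternally expressed single-exon transcription factor, had 0.094. GRB10, a growth factor receptor adaptor that forms a domain of its own on the same chromosome, held 379 and 629 counts in KO and 301 and 311 in WT. It had 35.8 ± 1.50 CPM in KO and 32.9 ± 2.25 CPM in WT, and a log2FC of 0.13 (SE 0.084, adjusted p 0.359).

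The PLAGL1 domain on chromosome 6 had the highest median level, 44.3 CPM in WT, of the domains with several members. PLAGL1 codes for a zinc finger regulator of growth, and held 394 and 650 counts in KO and 320 and 300 in WT. HYMAI, which starts within PLAGL1, held 651 and 1089 in KO and 548 and 486 in WT. At either promoter the 2 KO values exceeded the 2 WT values, as they did at 25.2% of all promoters. The log2FC values were 0.17 (SE 0.083) for PLAGL1 and 0.16 (SE 0.069) for HYMAI, with edgeR adjusted p of 0.233 and 0.150, so neither passed. The ratio of HYMAI to PLAGL1 counts was nearly constant, at 1.65 and 1.68 in KO and 1.71 and 1.62 in WT. Because the HYMAI start is also a listed start of PLAGL1, their windows may share fragments, which was not tested.

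In the Prader-Willi and Angelman region on chromosome 15, SNRPN, SNURF, NDN and MKRN3 were nearly closed, MAGEL2 was of middle level and UBE3A was open. SNRPN, which codes for a splicing protein, held 9 and 10 counts in KO and 4 and 10 in WT, and was not tested because of these low counts. SNURF, encoded upstream of SNRPN, had 10 and 21 counts in KO and 13 and 21 in WT. Its levels were 0.917 and 1.23 CPM in KO and 1.35 and 2.33 CPM in WT, with a log2FC of −0.71 (SE 0.37, edgeR adjusted p 0.251), which was −1.06 without WT replicate 1 and −0.28 without WT replicate 2. NDN, which codes for necdin, had 16 and 27 counts in KO and 16 and 20 in WT, with −0.33 (adjusted p 0.613). MKRN3, a ubiquitin ligase known for its role in the timing of puberty, had 29 and 46 counts in KO and 21 and 15 in WT. MKRN3, which is paternally expressed, had the highest log2FC of all tested members, 0.47 (SE 0.30, adjusted p 0.369). Both KO libraries, at 2.66 and 2.70 CPM, lay above WT at 2.18 and 1.66 CPM. MAGEL2, a relative of NDN, was higher than the other paternal genes at 8.73 ± 2.63 CPM in WT and 9.78 ± 0.345 CPM in KO. UBE3A, the ubiquitin ligase whose maternal copy is lost in Angelman syndrome, had 265 and 408 counts in KO and 214 and 180 in WT. Its levels of 24.1 ± 0.269 CPM in KO and 21.1 ± 1.62 CPM in WT did not overlap, and the log2FC of 0.19 (SE 0.10) had an adjusted p of 0.271. UBE3A counts exceeded those of NDN in every library, by a factor of 16.6 and 15.1 in KO and 13.4 and 9 in WT.

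GNAS and NNAT, on chromosome 20, are domains in which promoters lie within or beside other genes. GNAS, the stimulatory G protein subunit, had 65 and 134 counts in KO and 88 and 67 in WT, with overlapping groups and a log2FC of −0.23 (SE 0.17, edgeR adjusted p 0.459), which ranged from −0.47 without KO replicate 2 to −0.060 without KO replicate 1. GNAS-AS1, its paternally expressed antisense transcript, had −0.11 with both KO libraries below WT. NNAT, which codes for neuronatin and lies in an intron of BLCAP, had 88 and 132 counts in KO and 69 and 66 in WT, or 7.91 ± 0.234 CPM and 7.24 ± 0.102 CPM. These groups did not overlap, but the log2FC of 0.12 (SE 0.17) had an adjusted p of 0.727. BLCAP, at 36.0 ± 2.76 CPM in KO and 35.2 ± 4.03 CPM in WT, had 0.021. L3MBTL1, a chromatin reader on the same chromosome, had −0.071 with overlapping groups.

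Among the domains on chromosomes 8 and 6, PEG13 came closest to the threshold. PEG13, a paternally expressed noncoding RNA within TRAPPC9, had 259 and 440 counts in KO and 213 and 171 in WT. The levels were 24.8 ± 1.45 CPM in KO and 20.5 ± 2.25 CPM in WT, and the groups did not overlap. The log2FC was 0.28 (SE 0.10, edgeR adjusted p 0.0870). Without WT replicate 1 it was 0.40 with an adjusted p of 0.0341, and without WT replicate 2 it was 0.17. KCNK9, a maternally expressed potassium channel, had 0.11 (SE 0.14, adjusted p 0.673), and TRAPPC9, which codes for a trafficking protein, had −0.060 (adjusted p 0.734). Whether these differ from PEG13 was not tested. KCNK9 held 129 and 225 counts in KO and 115 and 103 in WT. The ratio of PEG13 to TRAPPC9 counts was 0.794 and 0.843 in KO and 0.657 and 0.643 in WT, higher in both KO libraries. The counting intervals of each KO library overlapped those of each WT library, for example 0.743 to 0.957 in KO replicate 2 and 0.531 to 0.779 in WT replicate 2. The difference in this ratio was not tested. IGF2R, the receptor that clears IGF2, stood at 43.7 and 44.9 CPM in KO and 39.5 and 43.4 CPM in WT, with a log2FC of 0.10 (SE 0.076, adjusted p 0.467). Its antisense transcript AIRN held fewer counts than IGF2R by a factor of 8.64 to 10.6, depending on the library, and had a log2FC of 0.020.

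The remaining members form domains with 1 gene. Values of log2FC were 0.14 at FAM50B, 0.13 at the tumour suppressor RB1, 0.072 at ZFAT, 0.060 at ERLIN2, −0.10 at ZDBF2 and −0.21 at DIRAS3, a relative of RAS. Both KO libraries lay above WT at FAM50B, RB1 and ZFAT, as at 25.2% of all promoters. They lay below at ZDBF2 and DIRAS3, as at 25.4% of all promoters. Adjusted p in edgeR ranged over the 6 from 0.277 to 0.727.

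By the parental allele known to be expressed, 26 tested members were paternal, 11 maternal and 9 variable between tissues or transcripts. Median log2FC values were −0.074, −0.031 and 0.060. The median WT levels of the same classes were 7.98, 18.5 and 32.9 CPM, so the order of the fold changes was that of the levels. Across the whole table the fold change moved with level too. The median was −0.27 in the lowest of 10 level classes of all promoters and 0.082 in the highest. Across the 46 members, which share 4 libraries and are not independent, Pearson's r of log2FC with log2 level was 0.62, and 0.20 once loess offsets had removed the trend of all promoters. Members below the median level of all promoters had a median of −0.11 (n = 27), against −0.18 over all promoters below it, and those above had 0.094 (n = 19), against 0.061. The log2FC lay between the 10th and the 90th percentile of its level class at 40 of 46 members. Above were PPP1R9A, PEG13, NNAT and MKRN3, and below were KCNQ1 and MEG3. With loess offsets the values of MEG3, MEST and PEG3 were −0.26, −0.26 and −0.23, and those of PPP1R9A and PEG13 were 0.25 and 0.24. MKRN3 rose to 0.72 and NNAT to 0.24, and the median over members was −0.0019.

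**Figure D3:**
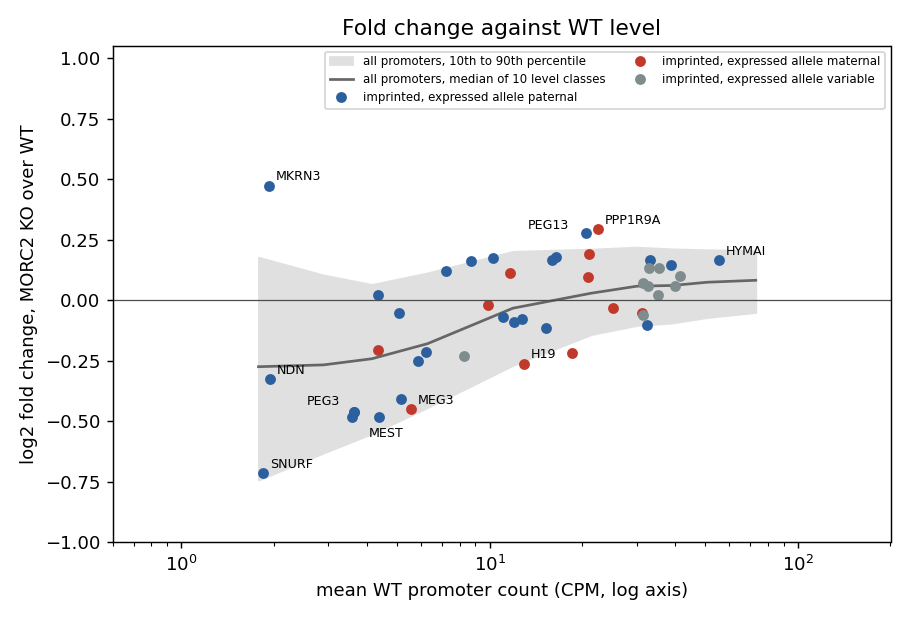
Log2FC of MORC2 KO over WT against mean WT level (CPM, log axis) for the 46 tested imprinted promoters, coloured by the parental allele known to be expressed, over the median (line) and the 10th to 90th percentile (grey) of all promoters in 10 level classes by the mean of WT and KO. The median of all promoters rises from −0.27 to 0.082 across the classes, and 40 of the 46 members lie inside the grey band.

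The promoters of genes linked to the setting or keeping of imprints were also followed, in a list of 19. They were ZFP57, ZNF445, TRIM28, SETDB1, DNMT1, UHRF1, DPPA3, SMCHD1, CTCF, CTCFL, DNMT3A, DNMT3L, EHMT2, ARID4A, ARID4B, NLRP7, NLRP5, KHDC3L and PADI6. Of these 0 were called in edgeR, where 4.45% of all promoters were, with 3 at an unadjusted p under 0.05 (20.3% of all promoters), 1 higher and 2 lower. DESeq2 called 0 with 0 at that level, against 0.0253% and 5.16% of all promoters, and limma-trend called 0 with 1, against 2.59% and 5266 of 27647 promoters. The log2FC was positive at 7 and negative at 12. ZFP57 had a log2FC of −0.15 at a low level of 3.08 ± 0.459 CPM in KO and 3.47 ± 0.524 CPM in WT. ZNF445 had 0.038, TRIM28 −0.026, SETDB1 −0.0063, DNMT1 0.16 and CTCF, which insulates IGF2 from its enhancers on the maternal allele, −0.028. SMCHD1, a chromosomal protein that resembles MORC proteins in its GHKL-type ATPase domain and acts at imprinted clusters, had the smallest adjusted p of the list. It held 383 and 605 counts in KO and 315 and 256 in WT, with a log2FC of 0.21 (SE 0.086, adjusted p 0.140), and passed, among all the alternatives run, without WT replicate 1 alone (0.32, adjusted p 0.0450). Without WT replicate 2 it was 0.11 (adjusted p 0.649). The 2 lower promoters at an unadjusted p under 0.05, named after their values were seen, were NLRP7 and PADI6. NLRP7 had 1.01 and 0.880 CPM in KO and 1.87 and 1.33 CPM in WT (log2FC −0.78, adjusted p 0.238), and PADI6 had 4.59 and 2.76 CPM in KO and 4.67 and 4.98 CPM in WT (log2FC −0.47, adjusted p 0.225).

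A second list held 34 other genes that lie in or beside the same domains, of which 33 were tested. COBL, an actin nucleator beside GRB10, was called and higher in KO, 1 of 33 against 4.45% of all promoters. It had 310 and 481 counts in KO and 211 and 201 in WT, or 28.3 ± 0.161 CPM and 22.1 ± 0.247 CPM. The KO libraries were closely matched and both lay above WT, with a log2FC of 0.36 (SE 0.097, edgeR adjusted p 0.0139). The call was lost with loess offsets (0.31, adjusted p 0.0761), with total count scaling (0.49, adjusted p 0.374) and in DESeq2 (0.36, adjusted p 0.763), and on leaving out any 1 library (0.35 to 0.37). GRB10 itself, at 0.13, was not called, and DDC, the other neighbour of GRB10, had −0.65 (SE 0.25, adjusted p 0.107) at 2.73 ± 0.546 CPM in KO and 4.17 ± 0.265 CPM in WT. OSBPL5, beside the KCNQ1 domain, had 0.27 (adjusted p 0.0857). At an unadjusted p under 0.05 in edgeR there were 6 of the 33, 3 higher and 3 lower, where 20.3% of all promoters passed. Besides COBL, OSBPL5 and DDC these were CARS1 (log2FC 0.17), CTSZ (−0.41) and LPAR6 (−0.61). All but COBL were named after their values were seen. The median log2FC of this list was −0.035.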

How the data were processed

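Promoter accessibility was measured by ATAC-seq in 2 WT and 2 MORC2 KO libraries of HEK293T cells. The authors trimmed paired-end reads, aligned them to CHM13 with bowtie2, kept proper pairs of high mapping quality and removed duplicates with Picard. The deposited table holds raw counts, 1 row per NCBI Gene ID, and the submitters' notes name featureCounts of Subread 2.0.6. Whether fragments or midpoints were counted for it is not given in the sources used here. Symbols came from RefSeq on GRCh38.p14 (28763 of 28775 IDs), of which no gene-table coordinate was used. The WT peak list, on CHM13, was not used here.

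All 4 libraries were fitted over the whole table in edgeR 4.0.16 (R 4.3.3) with filterByExpr (27647 rows kept), TMM and the legacy quasi-likelihood F-test, two-sided and without covariates. P-values were adjusted by Benjamini-Hochberg over all tested promoters and called under 0.05. Standard errors were derived from the F statistic, and CPM is TMM-scaled. Counts differed between replicates beyond sampling noise, with a chi-square per degree of freedom of 1.20 (KO) and 1.33 (WT) over nuclear rows. Over the imprinted rows it was 1.03 (KO) and 1.62 (WT). Same-numbered libraries did not deviate together. DESeq2 1.42.0, limma 3.58.1, other scalings and filters, a replicate block and omission of each library were alternatives. The fits were checked on simulated counts. Members and lists were chosen with earlier results of these data known. Values in every library are given for called members and for leading genes of the domains, and other members, such as PPP1R9A, MKRN3 and SMCHD1, were singled out after their values were seen.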

Additional observations from a re-analysis of the deposited data

How the results depend on the processing

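The count of 0 called imprinted promoters was 1 with size factors of DESeq2 (PPP1R9A), ranged from 0 to 2 when a library was left out, and was 0 in every other alternative. Independent filtering in DESeq2 left 45 of the 46 without an adjusted p. With rows of 1 domain whose counts lay within 25% of each other counted once, 0 of 41 were called. This also merged DLK1 with MEG3 and RTL1 with DIO3, which the text otherwise treats as separate promoters. In the list of genes linked to the setting or keeping of imprints, 0 were called in every alternative that used all libraries. The log2FC of SMCHD1 was 0.32 without WT replicate 1 and 0.11 without WT replicate 2. The 1 other called promoter of the domains, COBL, became 0 with total count scaling, loess offsets and both DESeq2 tests, and 0 with any library left out. The median of imprinted promoters was 0.11 with total count scaling, which moved the median of all promoters to 0.12, and ranged from −0.028 to 0.048 with a library left out. IGF2 and CDKN1C turned positive with total count scaling (0.068 and 0.085), and leaving out a library gave −0.22 to 0.088 for IGF2, −0.093 to 0.020 for CDKN1C, −0.51 to 0.088 for DLK1 and −0.83 to 0.0058 for PEG3. Without a change of direction, leaving out a library also moved others by over 1.5 times: the range was −0.52 to −0.11 for NDN, 0.078 to 0.27 for PEG10, 0.11 to 0.23 for SGCE, 0.064 to 0.20 for GRB10, 0.024 to 0.19 for KCNK9, 0.032 to 0.17 for IGF2R and 0.12 to 0.27 for UBE3A.

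Calls over all promoters numbered 1229 (954 higher, 275 lower). They were 20 with total count scaling (19 higher, 1 lower), 394 with loess offsets (213 higher, 181 lower), 787 at a mean count of at least 50 (520 higher), 717 in limma-trend (590 higher), and 6 and 7 in DESeq2 with and without independent filtering. With the replicate block they were 765 (553 higher), and 0 imprinted promoters were called. Deviations of same-numbered libraries correlated at −0.00027, so no pairing by replicate number was seen. Counting noise could hide a weak one, which was not tested. The block changed no call of a named promoter. Leaving out a library gave 41 (without KO replicate 2) to 1637 calls, with 230 without WT replicate 2. Such fits leave 1 group with a single library, which is assumed to vary like the other group. For these settings the cause was not tested. Over 23 named promoters, under alternatives that used all libraries 244 values kept direction and call, 2 changed direction, 1 gained a call and 3 lost one. When a library was left out 80 kept both, 5 changed direction, 3 gained a call and 4 lost one.

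Below 5 CPM the 95% intervals of log2 fold changes spanned 0.875 to 1.44, and SNRPN was too low to be tested. Alleles were not separated, and each gene was seen through 1 window.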
